A study of Mus musculus with 12 samples.

Results

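The comparison described here is between the 4 arrays that carry replicate number 1 and the 8 arrays that carry replicate number 2 or 3 in a series of 12 expression arrays. The members were chosen from the array titles alone: 1 array of each of 4 constructs ends in number 1, and 4 arrays each end in number 2 and number 3. The comparison itself was chosen with earlier results of these data known. Each array held RNA from a primary culture of cerebellar granule cells from lethargic mice on a 129/SvJ background, which carry a mutation of Cacnb4; its product β4 is an auxiliary subunit of calcium channels opened by voltage. All cultures were started at postnatal day 7, were given lentivirus for 12 h right after plating, received the antimitotic drug Ara-C at 24 h, and were lysed after 9 days in vitro. The virus carried eGFP or the β4 splice variant β4a, β4b or β4e, so each replicate number holds 1 array of each construct. The labels name BALB/c mice beside lethargic ones in the shared growth text, give lethargic for all 12 arrays, and do not say how many mice or platings stood behind an array. They also do not say that a replicate number marks a round of culture, so the arrays are called here by their number. The p-values measure the spread between arrays, and all 4 arrays of replicate 1 share that number, which makes the comparison 1 set against 2.

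Granule cells are the small excitatory neurons of the cerebellar cortex and by far its most numerous neurons. When the cerebellum of a young pup is dissociated, postmitotic granule cells settle and mature in the dish, and Ara-C kills most of the cells that still divide. A minority of Purkinje cells, inhibitory interneurons, astrocytes, oligodendrocyte lineage cells, microglia and meningeal fibroblasts usually comes with them, and glia and fibroblasts are the main producers of matrix and of many cytokines there. The tissue label was met by the defining markers: Gabra6, the GABA-A receptor subunit of mature granule cells, read 13.6 to 14.0 on the log2 scale in the 12 arrays, and the lineage factors Neurod1 and Zic1 read 14.2 to 14.4.

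A total of 23044 probe sets exceeded 4 on the log2 scale in at least 3 arrays and were tested with limma, with construct as a covariate. Differences are log2 values of replicate 1 minus the mean of the other arrays, ± SE, from 4 arrays against 8, and a probe set passed at a Benjamini-Hochberg adjusted p under 0.05 over all probe sets. In replicate 1, 5256 probe sets were higher (22.8%) and 3948 lower (17.1%). With 1 probe set for each of 10983 genes, 2934 genes were higher (26.7%) and 891 lower (8.11%). Of these, 563 were higher and 129 lower by at least 1 on the log2 scale, which is a 2-fold difference. The 4 arrays lay above all 8 others for 1890 genes (17.2%) and below all 8 for 587 (5.34%). The separation of replicate 1 from the others took up 53.2% of the sum of squares over all tested probe sets, that of replicate 2 from 3 22.8%, and construct 10.5%. Counts and lists below are to be read against these shares. A gene could meet the filter through the 4 arrays of replicate 1 alone, which favours a call as higher. One that met it through the 8 others alone leaned to a call as lower. The counts include such genes.

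A random effect shared by arrays of 1 number was fitted with the same consensus correlation of 0.43 for all probe sets. It does not follow each gene's own spread between numbers, so a gene that passed can still differ widely between replicates 2 and 3. Slc17a6, at a mean of 2.62 in replicate 2 and 5.35 in replicate 3, passed (adjusted p = 0.0449). With this random block, 711 genes were higher (6.47%) and 203 lower (1.85%), and over all probe sets 1256 were higher and 1666 lower. An adjusted p from that fit is given below, as that with the random block, wherever a named gene did not pass there. The share of higher and lower genes also depended on the scaling. The median gene was higher in replicate 1 by 0.13, and with each array shifted so that the median deviation of its genes was 0, 1864 genes were higher and 1650 lower (32.0% in either direction). On probe sets, 57.1% of the calls were higher as deposited, 37.4% after that shift and 21.5% when the medians over genes were made equal. Of the 3825 genes that passed, 3748 differed in 1 direction in all 4 constructs. Against replicate 2 and replicate 3 taken one at a time, 3027 of them passed both times in the same direction. Both counts come from the arrays that selected these genes, so they are no separate support.

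Some control readings differed between the replicate numbers, and their part in the results was not tested. The poly-A spike-in controls averaged 5.90 to 7.58 in replicate 1, 5.32 to 5.70 in replicate 2 and 3.96 to 4.33 in replicate 3, with no overlap between the numbers. The 3′ minus 5′ difference of the Gapdh control probe sets was 0.09 to 0.40, 0.05 to 0.12 and -0.05 to 0.07 in the same order, while that of Actb overlapped, at 0.82 to 1.09, 0.85 to 1.02 and 0.85 to 0.96. The hybridisation spike-ins overlapped between the numbers, at 10.5 to 12.3 over the 12 arrays. Xist, which female cells transcribe from the inactive X chromosome, read 3.44 to 3.86 in all arrays of replicates 1 and 2 and 12.99 to 13.16 in the 4 of replicate 3. The Y-linked genes were chosen after their values were seen. Kdm5d read 7.94 to 8.21 in replicate 1, 7.14 to 7.42 in replicate 2 and 5.85 to 6.31 in replicate 3, and Eif2s3y read 9.88 to 10.79 over the 12 arrays. Values near or below 4 are close to background, so differences from them are not exact.

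**Figure D1:**
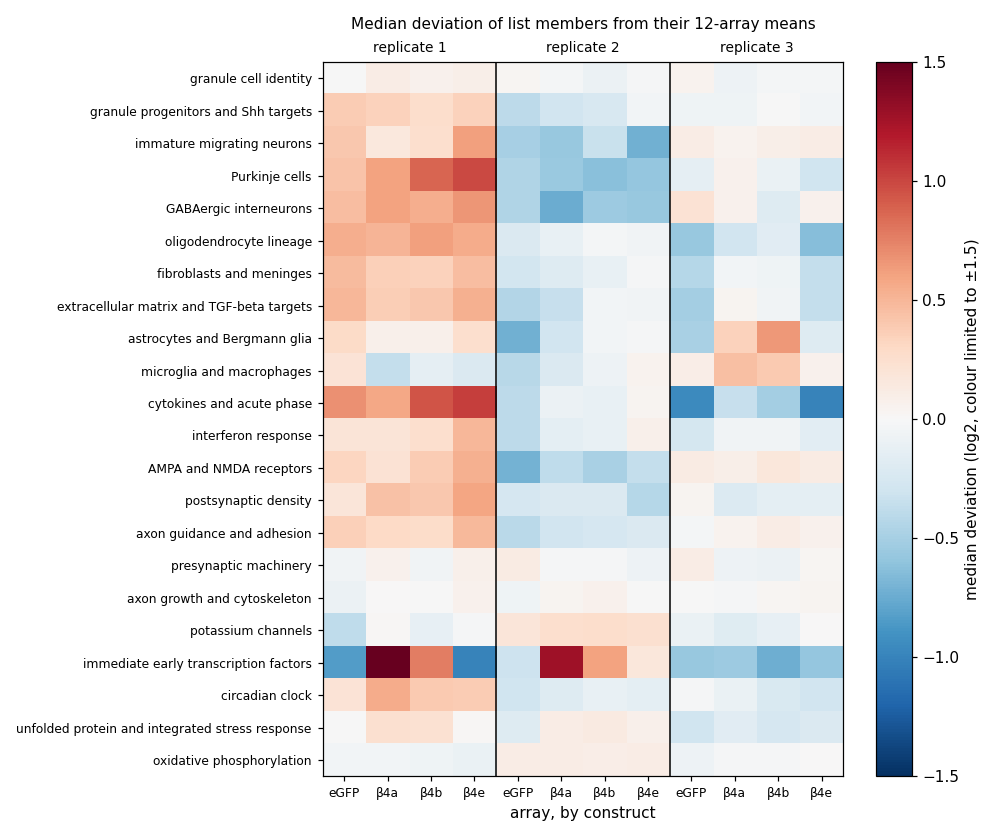
Median deviation of the members of 22 gene lists from their 12-array means (log2, colour), with a column for each array, grouped by replicate number and ordered by construct. The cytokine list lies at 0.58 to 1.04 in replicate 1 and at or below 0.05 in the other arrays, while the immediate early list spreads between constructs in replicate 1 (-0.83 for eGFP, 1.66 for β4a) and in replicate 2 (-0.31 and 1.27).

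The transcripts of granule cell identity differed little as a group, and those that differed went both ways. Of 31 tested, 7 were higher and 4 lower, with a median of 0.07 against 0.13 over all genes. With the random block 2 were higher and 2 lower; after the shift of the median gene to 0, 5 were higher and 6 lower with a median of -0.06. Without β4b replicate 1 or β4e replicate 1 the higher count was 4. Gabra6 differed by 0.16 ± 0.10 (adjusted p = 0.238), Neurod1 by 0.04 ± 0.07 (adjusted p = 0.704; -0.21 with medians over genes made equal) and Zic1 by 0.07 ± 0.08 (adjusted p = 0.507). Slc17a7, the vesicular glutamate transporter VGLUT1, differed by -0.10 ± 0.21 (adjusted p = 0.725). Cacnb4, mutated in all of these mice, read 11.80 to 12.24 in the 12 arrays and differed by -0.03 ± 0.09 (adjusted p = 0.803). The eGFP arrays, which had no viral β4, lay within this range. Whether its probe sets also read the viral transcript was not tested, so the values are not split by source.

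Among the granule lineage genes that passed, Zic2 and Neurod2 were higher and Fat2, Rbfox3 and Tiam1 lower. Zic2, a zinc finger factor of the lineage, read 12.50, 12.43, 12.21 and 12.25 in the eGFP, β4a, β4b and β4e arrays of replicate 1 (the order used throughout) and 10.58 to 11.41 in the other 8, with a median of 10.87. All 4 arrays lay above all 8, and the difference was 1.44 ± 0.16 (adjusted p = 0.000198). Neurod2, a differentiation factor, was higher by 1.03 ± 0.16 (adjusted p = 0.000894). Fat2, a protocadherin of granule cells and their parallel fibres, read 11.82, 11.30, 10.77 and 11.19 against 12.13 to 12.80 with a median of 12.33. It fell by 1.09 on the log2 scale (SE 0.13, adjusted p = 0.000206). Rbfox3, which encodes the neuronal nuclear antigen NeuN, differed by -0.99 ± 0.19 (adjusted p = 0.00284, adjusted p = 0.0963 with the random block), and Tiam1, an activator of Rac, by -0.64 ± 0.10 (adjusted p = 0.00127).

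Some genes of progenitors and young neurons were higher in replicate 1, and most of these calls were lost with the random block. In the list of granule progenitors and Sonic hedgehog targets, 7 of 14 tested were higher and 0 lower, with a median of 0.45. That median was 0.70 against replicate 2 and 0.19 against replicate 3. With the random block 2 passed, and the count was 4 without β4a replicate 1 and 3 without β4e replicate 1. Atoh1 and Gli1, which mark dividing progenitors, stayed at or below 3.33 in all arrays and were not tested, as was Mki67, a proliferation marker, at or below 3.44. Of 17 cell cycle genes tested, 7 were higher (41.2%) and 0 lower, with a median of 0.30. With the random block 1 passed, and after the shift of the median gene to 0 there were 4. Insm1, a zinc finger factor of neurons leaving the cycle, read 10.85, 9.77, 9.88 and 10.45 against 5.89 to 9.17 with a median of 7.52. The 4 arrays lay above all others, and the difference was 2.89 ± 0.46 (adjusted p = 0.00117). Mycn, a growth factor target in progenitors, was higher by 2.26 ± 0.54 (adjusted p = 0.00926). It averaged 6.46 in replicate 1, 3.26 in replicate 2, near background, and 5.12 in replicate 3.

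In the list of immature migrating neurons, 9 of 21 were higher and 2 lower, with a median of 0.56. With the random block 2 were higher and 1 lower; after the shift of the median gene to 0 the higher count was 4. The higher count was also 4 without eGFP replicate 1, 5 without β4a replicate 1, 3 without β4b replicate 1 and 1 without β4e replicate 1, and 1 was lower without either of the last pair. The median was 1.12 against replicate 2 and 0.25 against replicate 3. Dcx, the microtubule protein doublecortin that marks migrating neurons, differed by 1.28 ± 0.60 and did not pass (adjusted p = 0.115), and Sox11, a factor of young neurons, differed by 0.79 ± 0.39 (adjusted p = 0.138). Pak3, a kinase that acts on dendritic actin, was higher by 1.88 ± 0.24 (adjusted p = 0.000386). Astn1, a membrane protein of neurons that migrate along glia, was higher by 1.74 ± 0.44 (adjusted p = 0.0120), but did not pass without β4e replicate 1 (adjusted p = 0.0550). Tubb3, neuronal β-tubulin, went the other way: it read 7.05, 6.98, 6.86 and 7.12 against 7.49 to 8.66 with a median of 8.11, a difference of -1.13 ± 0.19 (adjusted p = 0.00163).

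Several markers of the inhibitory neurons of the cerebellar cortex were higher, as the counts below give. In bulk RNA, more cells of a type and more RNA per cell cannot be told apart. Of 9 Purkinje cell genes tested, 7 were higher and 0 lower with a median of 0.73 (4 with the random block; 4 without β4a replicate 1 or without β4e replicate 1). The higher genes included Homer3 (mean 4.12 against 3.39) and Lhx5 (4.27 against 3.60), both near background. Pcp2, which defines Purkinje cells, was at or below 3.73 in all 12 arrays on its 3 probe sets, and so were Ppp1r17, Slc1a6, Gng13 and Foxp2. Calb1, the calcium buffer calbindin, read 5.66, 6.13, 6.51 and 7.00 against 3.69 to 4.54 with a median of 4.07. The groups did not overlap, and the difference was 2.26 ± 0.25 (adjusted p = 0.000183). Car8, a regulator of the inositol trisphosphate receptor, was higher by 2.16 ± 0.42 (adjusted p = 0.00340).

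Of 11 genes of GABAergic interneurons, 7 were higher and 0 lower with a median of 0.80. Lhx5, near background, was counted as higher here as well. With the random block 2 were higher, and without β4e replicate 1 the counts were 3 higher and 1 lower. After the shift of the median gene to 0, 6 were higher and 2 lower. Pvalb (-0.43 ± 0.18, adjusted p = 0.0831) and Grm2 (-0.14 ± 0.09, adjusted p = 0.237) differed downward and did not pass. Slc6a5, Npy, Sst, Dlx1 and Dlx2 did not meet the filter. Gad1 and Gad2 encode the enzymes that make GABA. Gad1 was higher by 0.81 ± 0.19 (adjusted p = 0.00930, adjusted p = 0.0512 with the random block). Gad2 read 9.08, 9.27, 9.25 and 9.35 against 7.64 to 8.62 with a median of 8.13, a difference of 1.12 ± 0.17 (adjusted p = 0.000895). Slc32a1, the vesicular GABA transporter, was higher by 1.89 ± 0.48 (adjusted p = 0.0124) but not without β4e replicate 1 (adjusted p = 0.0562). It averaged 9.54 in replicate 1, 6.83 in replicate 2 and 8.46 in replicate 3. Slc17a6, the glutamate transporter VGLUT2 of unipolar brush cells and young granule cells, read 7.33, 6.21, 6.67 and 8.35 in replicate 1. It read 2.32 to 2.89 in replicate 2, near background, and 4.97 to 5.90 in replicate 3. The difference was 3.16 ± 0.81 (adjusted p = 0.0126; 0.0610 without β4e replicate 1). Eomes, which defines unipolar brush cells, differed by 0.28 ± 0.47 (adjusted p = 0.666).

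**Figure D2:**
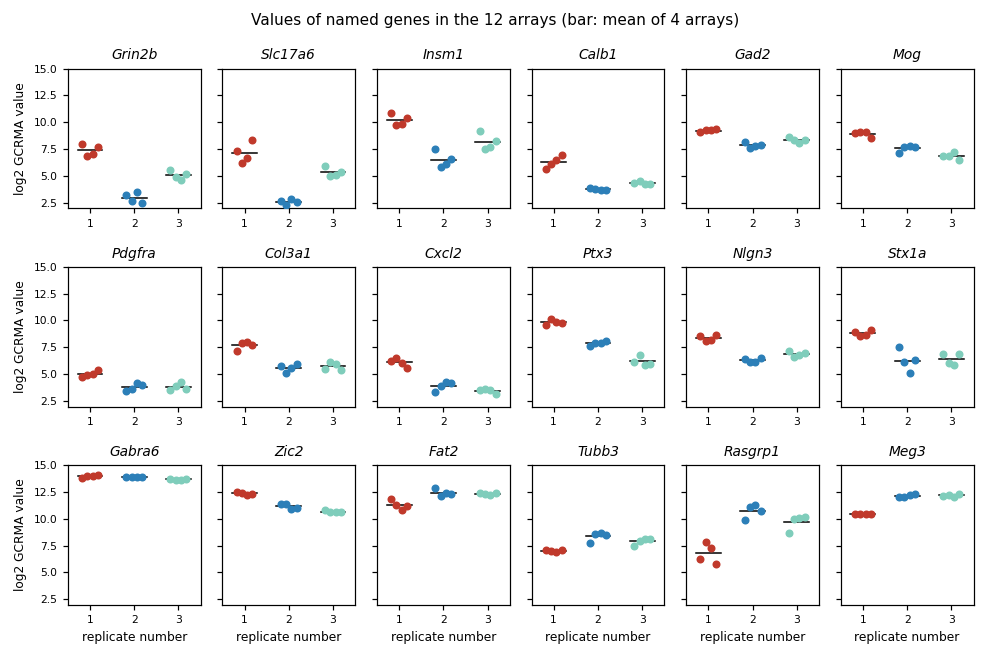
Log2 GCRMA values of 18 named genes in each of the 12 arrays, by replicate number; within a number the points run eGFP, β4a, β4b, β4e from left to right, and the bar is the mean of the 4. Grin2b at 6.88 to 8.03 and Mog at 8.51 to 9.12 in replicate 1 lie above all other arrays, Meg3 at 10.39 to 10.47 lies below them, and Gabra6 overlaps.

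The oligodendrocyte lineage gave the largest share of higher genes among the cell type lists with more than 5 members tested. Of 21 tested, 17 were higher and 0 lower with a median of 0.94, and 12 lay above all 8 other arrays. The higher genes included some near background, such as Nkx2-2 (mean 4.24 against 3.60) and Opalin (4.23 against 3.89). With the random block 9 passed, after the shift of the median gene to 0 there were 13, and without β4a replicate 1 or without β4e replicate 1 there were 11. The list's median deviation was 0.50 to 0.62 in the 4 arrays of replicate 1, -0.21 to -0.03 in replicate 2 and -0.64 to -0.17 in replicate 3. Mog, a protein of the outer myelin surface, read 9.02, 9.12, 9.06 and 8.51 against 6.51 to 7.76 with a median of 7.16. The difference was 1.71 ± 0.24 (adjusted p = 0.000621). Enpp6, an ectoenzyme of newly formed oligodendrocytes, differed by 1.35 ± 0.28 (adjusted p = 0.00468). Genes known from the precursor stage differed among themselves. Pdgfra, the growth factor receptor of precursors and of fibroblasts, read 4.79, 4.96, 5.07 and 5.40 against 3.46 to 4.27, a difference of 1.23 ± 0.13 (adjusted p = 0.000121). Cspg4, the proteoglycan NG2 of precursors and pericytes, differed by -0.05 ± 0.08 (adjusted p = 0.615). The lineage factor Olig2 was higher by 1.04 ± 0.14 (adjusted p = 0.000513), while Olig1 (0.53 ± 0.21, adjusted p = 0.0665) and Sox10 (0.27 ± 0.13, adjusted p = 0.129) did not pass. Lhfpl3 was higher by 1.29 ± 0.23 (adjusted p = 0.00189) and Tspan2, a tetraspanin of myelinating cells, by 1.27 ± 0.19 (adjusted p = 0.000802). Mbp, the main cytoplasmic myelin protein, was close to the top of the range in every array, at 14.41 to 14.52 in replicate 1 and 13.94 to 14.37 in the others. Its difference was 0.28 ± 0.10 (adjusted p = 0.0473; adjusted p = 0.216 with the random block; 0.210 after the shift of the median gene to 0). Without any 1 of the 4 replicate 1 arrays, of β4a replicate 2 or of the 4 replicate 3 arrays, its adjusted p was 0.0608 to 0.117.

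Of 24 fibroblast and meningeal genes, 14 were higher and 0 lower with a median of 0.56 (6 with the random block). The higher genes included some near background, such as Col1a1, Lum and Col6a2, with means of 3.62, 3.52 and 3.86 in replicates 2 and 3. Of 23 genes of the extracellular matrix and TGF-β response, 12 were higher and 0 lower with a median of 0.73 (5 with the random block). After the shift of the median gene to 0 the higher counts were 13 and 9, with 1 lower in each list. Of the 24 fibroblast and meningeal differences as deposited, 17 were above 0. Among those below 0, none of which passed, were Mgp (-0.75 ± 0.32, adjusted p = 0.0904), Fn1 (-0.31 ± 0.23, adjusted p = 0.308) and Igfbp4 (-0.13 ± 0.23, adjusted p = 0.685). Col3a1, a fibrillar collagen, read 7.19, 7.92, 7.95 and 7.72 against 5.12 to 6.11 with a median of 5.65. No array of replicate 1 overlapped the others, and the difference was 2.04 ± 0.20 (adjusted p = 0.000101). Col1a1, the main collagen of fibroblasts, stayed near background, at 4.00 to 4.17, above the highest of the others (0.48 ± 0.08, adjusted p = 0.00194, adjusted p = 0.0719 with the random block). Dcn, a matrix proteoglycan, read 7.59 to 9.34 in replicate 1, 6.81 to 7.03 in replicate 2 and 3.49 to 4.18 in replicate 3. Its difference of 3.09 ± 0.92 passed (adjusted p = 0.0245, adjusted p = 0.0669 with the random block) but not without any 1 of the 4 replicate 1 arrays (adjusted p = 0.0541 to 0.0952). Timp1, an inhibitor of matrix proteases, was higher by 1.82 ± 0.32 (adjusted p = 0.00202). Col4a1, a basement membrane collagen, was higher by 1.17 ± 0.15 (adjusted p = 0.000439), and Thbs1, thrombospondin 1, by 1.17 ± 0.20 (adjusted p = 0.00186). Thbs1 averaged 5.23 in replicate 1 and 4.07, near background, in the others. Cldn5, which defines endothelium, was at or below 3.74 in all arrays, and 3 genes of the endothelial and pericyte list were tested.

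Astrocyte and microglial genes did not follow the same pattern. Of 29 astrocyte and Bergmann glia genes, 8 were higher and 1 lower, with a median of 0.19 against 0.13 over all genes. The random block left 1 higher and 0 lower. After the shift of the median gene to 0, 5 were higher and the median was 0.06; the higher count was 4 without eGFP replicate 1 or β4e replicate 1 and 5 without β4a replicate 1, and 0 were lower without β4a, β4b or β4e replicate 1. By construct, the list median of replicate 1 minus the others was highest for eGFP and lowest for β4b, at -0.22. Gfap, the intermediate filament of astrocytes, read 10.78 to 11.53 in replicate 1 and 10.03 to 12.69 in the others (-0.06 ± 0.41, adjusted p = 0.922). Aqp4, the water channel of astrocyte endfeet, differed by 0.09 ± 0.35 (adjusted p = 0.862) and Slc1a3, a glial glutamate transporter, by -0.20 ± 0.48 (adjusted p = 0.764). The gene that passed as lower was Slc1a2, at a mean of 10.87 against 11.58. It differed by -0.72 ± 0.19 (adjusted p = 0.0158, adjusted p = 0.146 with the random block). Ntrk2, the receptor for BDNF, whose gene neurons also transcribe, was higher by 1.04 ± 0.22 (adjusted p = 0.00525). Timp3, an inhibitor of matrix proteases, was higher by 1.67 ± 0.34 (adjusted p = 0.00410, adjusted p = 0.0524 with the random block).

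Of 20 genes of microglia and macrophages, 2 were higher and 4 lower with a median of -0.20. The random block left 1 higher and 0 lower. The 4 lower became 1 without any 1 of β4a, β4b or β4e replicate 1. They became 2 without eGFP replicate 1, and also without the β4a or the β4e array of replicate 3. The higher count became 1 without any 1 of the other arrays except β4a replicate 3 and β4e replicate 3. C1qa, a complement subunit made by microglia, read 7.69, 7.50, 7.45 and 7.54 against 7.96 to 9.47 with a median of 8.84, a difference of -1.19 ± 0.27 (adjusted p = 0.00664, adjusted p = 0.0514 with the random block). Cd53, a leukocyte tetraspanin, went the other way, at 7.08 to 7.76 against 5.62 to 6.46 (1.28 ± 0.19, adjusted p = 0.000844). Csf1r, the receptor that microglia need to survive, read 5.90 to 6.36 in replicate 1 and 5.79 to 7.25 in the others (-0.45 ± 0.32, adjusted p = 0.283). Cx3cr1, the fractalkine receptor, read 4.11 to 4.63 against 4.43 to 5.46 (-0.61 ± 0.21, adjusted p = 0.0390, adjusted p = 0.190 with the random block). It did not pass without any 1 of 8 arrays, all 4 of replicate 1 among them (adjusted p = 0.0508 to 0.135).

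**Figure D3:**
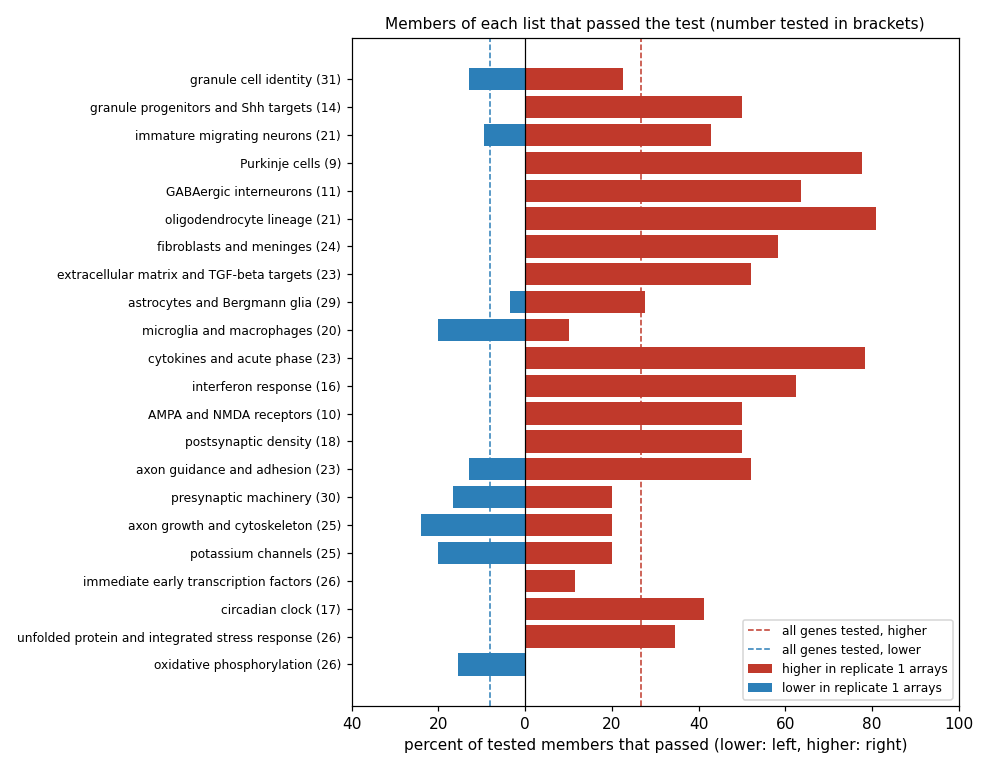
Percent of the tested members of 22 gene lists that passed as higher (red, right) or lower (blue, left) in replicate 1, with the number tested in brackets and the shares over all genes, 26.7% and 8.11%, as dashed lines. The oligodendrocyte list at 81.0%, the cytokine list at 78.3% and the Purkinje list at 77.8% reach farthest to the right.

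The cytokine and acute-phase genes had the largest median difference of the lists. Of 23 tested, 18 were higher and 0 lower with a median of 1.34, and all 23 differences were above 0. With the random block 9 passed, after the shift of the median gene to 0 there were 15, and 12 lay above all 8 other arrays. The list's median was 0.92 against replicate 2 and 1.31 against replicate 3. Cxcl2 and Cxcl3 are neutrophil-attracting chemokines encoded close together on chromosome 5, and Ptx3 is a soluble pattern-recognition protein of the acute phase. Their promoters are shown because these genes moved together by more than 2 on the log2 scale and hold a match to the κB consensus, the sequence to which NF-κB dimers bind; the match, looked for after the data were seen, is in capitals. Each runs from 250 bases before to 50 after the start site of RefSeq (GRCm38.p6), on the plus strand, at chr5:90903649-90903948 for Cxcl2, chr5:90785851-90786150 for Cxcl3 and chr3:66219637-66219936 for Ptx3.
Cxcl2: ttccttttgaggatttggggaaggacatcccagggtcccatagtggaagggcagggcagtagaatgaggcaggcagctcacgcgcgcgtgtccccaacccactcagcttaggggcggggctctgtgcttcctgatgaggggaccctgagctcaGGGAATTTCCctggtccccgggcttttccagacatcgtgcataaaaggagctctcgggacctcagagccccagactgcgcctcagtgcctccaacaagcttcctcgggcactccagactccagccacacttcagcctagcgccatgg
Cxcl3: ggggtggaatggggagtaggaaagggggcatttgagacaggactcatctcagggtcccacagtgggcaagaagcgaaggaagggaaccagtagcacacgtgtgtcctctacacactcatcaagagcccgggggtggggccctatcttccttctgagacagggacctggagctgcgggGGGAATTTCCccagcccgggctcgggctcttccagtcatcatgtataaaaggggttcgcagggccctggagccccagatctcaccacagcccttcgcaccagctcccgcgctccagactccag
Ptx3: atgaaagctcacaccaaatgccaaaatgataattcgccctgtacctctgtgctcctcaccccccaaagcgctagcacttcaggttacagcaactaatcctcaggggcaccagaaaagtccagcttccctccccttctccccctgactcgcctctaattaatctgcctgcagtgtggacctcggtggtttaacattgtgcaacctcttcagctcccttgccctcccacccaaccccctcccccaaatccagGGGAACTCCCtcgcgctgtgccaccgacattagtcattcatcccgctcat

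Of the 23 cytokine genes, 18 had a promoter in the RefSeq table, and 8 of these (44.4%) held the κB consensus on either strand, against 6.55% of the promoters of 27025 genes. The 8 were Csf1, Cxcl1, Cxcl10, Cxcl2, Il6, Nfkbia, Ptx3 and Steap4; Cxcl3 is no member of the list. In Ptx3 the match reads on both strands. The CRE motif TGACGTCA was in 0 of the 18, against 2.03% of all, and the AP-1 motif TGACTCA in 2 of 18 (11.1%, against 5.95%). In the immediate early list the κB consensus was in 6 of 21 promoters (28.6%). A match is a description of these letters. The share depends on which genes the list holds and not on the size of their differences. Members that passed were not compared with the rest.

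Cxcl3 read 7.70, 6.91, 7.36 and 6.35 in replicate 1 and 2.87 to 4.42 in the other arrays, with a median of 3.61. The groups lay far apart, and the difference was 3.43 ± 0.35 (adjusted p = 0.000110) from values near background. Cxcl2 read 6.23, 6.52, 6.05 and 5.61 against 3.16 to 4.32 with a median of 3.61 (2.39 ± 0.22, adjusted p = 7.92e-05). Ptx3 read 9.58, 10.17, 9.83 and 9.78 against 7.61 to 8.13 in replicate 2 and 5.90 to 6.77 in replicate 3, so all 3 numbers were apart. Its difference was 2.79 ± 0.49 (adjusted p = 0.00202). Ptgs2, cyclooxygenase 2, which inflammation and synaptic activity both induce, read 7.77, 8.77, 8.47 and 7.53 against 4.15 to 6.48 with a median of 5.53 (2.70 ± 0.38, adjusted p = 0.000625). Serpina3n, an acute-phase protease inhibitor of reactive astrocytes, read 9.88 to 10.12 against 6.52 to 8.01 (2.50 ± 0.30, adjusted p = 0.000268). Il6, interleukin 6, read 4.76 in the eGFP array of replicate 1 and 6.17 to 6.84 in the other three, and 2.35 to 4.82 in the 8 others. Its groups overlapped, and its difference was 2.50 ± 0.60 (adjusted p = 0.00959, adjusted p = 0.0560 with the random block). Of 16 interferon response genes, 10 were higher and 0 lower with a median of 0.39 (2 with the random block). Gbp3, a guanylate-binding protein, was higher by 1.04 ± 0.12 (adjusted p = 0.000188) and Irf9, a subunit of the interferon-activated complex ISGF3, by 0.64 ± 0.12 (adjusted p = 0.00269).

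The neuronal programmes were described by lists of receptors, synaptic proteins, guidance genes and channels. Of 10 AMPA and NMDA receptor genes, 5 were higher and 0 lower with a median of 0.68, but 1 with the random block and 2 after the shift of the median gene to 0. Their higher count was 2 or 3 without any 1 array of replicate 1 or 2. Grin2b, the NMDA receptor subunit GluN2B of young neurons, read 8.03, 6.88, 7.08 and 7.68 in replicate 1, 2.54 to 3.49 in replicate 2, near background, and 4.64 to 5.58 in replicate 3. All 3 numbers were apart, and the difference was 3.38 ± 0.62 (adjusted p = 0.00246). Gria1 and Gria2, subunits of AMPA receptors, did not pass, at -0.94 ± 0.61 (adjusted p = 0.246) and -0.04 ± 0.20 (adjusted p = 0.902). Gria4, another AMPA receptor subunit, was higher by 0.72 ± 0.15 (adjusted p = 0.00411, adjusted p = 0.0905 with the random block). Of 18 genes of the postsynaptic density, 9 were higher and 0 lower with a median of 0.56 (3 with the random block); after the shift of the median gene to 0, 9 were higher and 2 lower. Nlgn3, a neuroligin, read 8.52, 8.13, 8.22 and 8.68 against 6.13 to 7.18 with a median of 6.57 (1.79 ± 0.18, adjusted p = 0.000101). The scaffold genes Dlg1, Homer1 and Dlgap1 differed by -0.22, -0.12 and -0.15 and did not pass. Lrrtm1, another adhesion protein of excitatory synapses, was higher by 2.26 ± 0.56 (adjusted p = 0.0105, adjusted p = 0.0588 with the random block).

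Of 30 presynaptic genes, 6 were higher and 5 lower with a median of -0.01. The random block left 3 higher and 2 lower, and after the shift of the median gene to 0 the counts were 5 and 10. The higher count was 3 without β4e replicate 1, and 3 were lower when eGFP, β4a or β4e of replicate 1 was left out. Stx1a, the syntaxin of the release machinery, read 8.91, 8.57, 8.69 and 9.15 against 5.14 to 7.55 with a median of 6.20 (2.49 ± 0.24, adjusted p = 9.12e-05). Rab3a, a GTPase of synaptic vesicles, went the other way, at 8.94 to 9.16 against 9.48 to 9.68 (-0.52 ± 0.08, adjusted p = 0.000790). Pclo, the active zone scaffold piccolo, differed by -0.66 ± 0.08 (adjusted p = 0.000373). The list of axon growth and cytoskeleton had 5 higher and 6 lower of 25, 3 and 7 after the shift, and 2 and 1 with the random block; its higher count was 3 without β4a, β4b or β4e replicate 1. Map2, a dendritic microtubule protein, differed by -0.39 ± 0.07 (adjusted p = 0.00200, adjusted p = 0.0702 with the random block) and Nefl, the light neurofilament, by -1.03 ± 0.24 (adjusted p = 0.00763, adjusted p = 0.0832 with the random block).

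Of 23 genes of axon guidance and adhesion, 12 were higher and 3 lower with a median of 0.71 (6 and 1 with the random block). Cdh13, a cadherin anchored without a cytoplasmic tail, was higher by 2.23 ± 0.34 (adjusted p = 0.000877), and Cdh11 by 2.12 ± 0.28 (adjusted p = 0.000399). Ntn1, the guidance cue netrin 1, was higher by 1.36 ± 0.28 (adjusted p = 0.00445). Robo2, a receptor for Slit repellents, read 2.60 to 3.19, near background, against 4.33 to 6.35, a difference of -1.93 ± 0.27 (adjusted p = 0.000545). Epha5, an ephrin receptor, differed by -1.12 ± 0.21 (adjusted p = 0.00282, adjusted p = 0.0579 with the random block). Of 25 potassium channel genes, 5 were higher and 5 lower, with 2 and 7 after the shift of the median gene to 0 and 2 and 2 with the random block. The higher count was 2 or 3 without any 1 array of replicate 1, eGFP replicate 2 or β4e replicate 2. Kcnh1, an ether-a-go-go channel, was higher by 2.25 ± 0.38 (adjusted p = 0.00164), and Kcnd3, an A-type channel, by 1.41 ± 0.22 (adjusted p = 0.000954). Kcnn2, a calcium-activated channel, differed by -1.45 ± 0.26 (adjusted p = 0.00218, adjusted p = 0.0552 with the random block). Of 14 voltage-gated calcium channel genes, 6 were higher and 2 lower, and 3 and 1 with the random block; without β4e replicate 1 the higher count was 3, and without β4a or β4b replicate 1 the lower count was 1. Cacna2d2, an auxiliary α2δ subunit, was higher by 2.03 ± 0.27 (adjusted p = 0.000426), and Cacna1c, the pore of an L-type channel, by 0.97 ± 0.14 (adjusted p = 0.000825).

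Among the largest differences of all genes without overlap were the following. Rit2, a small GTPase of neurons, read 8.56, 8.28, 8.34 and 9.06 against 4.13 to 6.80 with a median of 5.25 (3.29 ± 0.50, adjusted p = 0.000881). Glra2, a glycine receptor subunit of immature neurons, was higher by 3.01 ± 0.69 (adjusted p = 0.00770), Masp1, a protease of the complement lectin pathway, by 2.79 ± 0.42 (adjusted p = 0.000831), and B3galt2, a galactosyltransferase, by 2.75 ± 0.32 (adjusted p = 0.000210). On the lower side, Rasgrp1, a calcium- and diacylglycerol-regulated activator of Ras, read 6.28, 7.86, 7.24 and 5.78 against 8.62 to 11.24 with a median of 10.11. The difference was -3.42 ± 0.39 (adjusted p = 0.000197). Vti1a, a SNARE protein of endosomes, differed by -2.99 ± 0.40 (adjusted p = 0.000488), while its 2 other tested probe sets did not pass. Lrp1b, a large lipoprotein receptor, differed by -2.74 ± 0.36 (adjusted p = 0.000428), Gpr158, an orphan receptor, by -2.67 ± 0.25 (adjusted p = 7.59e-05) and Ncald, the calcium sensor neurocalcin δ, by -2.54 ± 0.25 (adjusted p = 0.000103). Kirrel3, a synaptic adhesion protein, differed by -2.48 ± 0.28 (adjusted p = 0.000185) and Tnr, the matrix protein tenascin R, by -2.11 ± 0.22 (adjusted p = 0.000141).

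Lower values were most frequent among probe sets without a gene name. Of 3033 such probe sets, 1532 were lower (50.5%) and 309 higher, with a median of -0.46, and 862 were lower with the random block. Of the 10983 brightest probe sets of named genes, whose mean level was higher (7.63 against 5.93), 891 were lower. Of the 8494 other probe sets of named genes, with a mean level of 6.65, 1475 were lower (17.4%). The median of the unnamed probe sets was 4.49 to 4.94 in the arrays of replicate 1, 5.19 to 5.47 in replicate 2 and 5.30 to 5.46 in replicate 3, apart from the others in all 4 arrays. Among named genes, 60 of 280 long non-coding RNAs were lower (21.4%) and 51 higher, against 817 lower of 10634 protein-coding genes (7.68%). The random block left 20 of these RNAs lower and 16 higher, and 176 protein-coding genes lower. Of the genes lower without overlap, 6330415B21Rik differed most, at 5.95, 3.17, 4.08 and 5.28 against 8.56 to 9.00 with a median of 8.73 (-4.11 ± 0.36, adjusted p = 5.26e-05). The non-coding RNAs Meg3 and Kcnq1ot1, which are transcribed from imprinted regions, were named after their values were seen. Meg3 read 10.44, 10.46, 10.39 and 10.47 against 11.98 to 12.33 with a median of 12.16, and all 11 of its tested probe sets were lower, by -3.07 to -1.45. Kcnq1ot1 differed by -2.11 ± 0.20 (adjusted p = 8.52e-05). Lncpint, a p53-regulated non-coding RNA, differed by -1.37 ± 0.18 (adjusted p = 0.000399) down to values near background.

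Probe sets of 1 gene did not always move together. Of 3057 genes with 2 or more tested probe sets and at least 1 that passed, 250 had probe sets that passed in opposite directions. Fgf14, an intracellular partner of sodium channels, is an example: its brightest probe set read 9.09 to 10.33 in replicate 1 against 12.06 to 12.80 (-2.74 ± 0.23, adjusted p = 4.75e-05), and another differed by -2.66 ± 0.25. One more was higher, at 9.72 to 10.39 against 8.58 to 9.54 (0.89 ± 0.22, adjusted p = 0.00997, adjusted p = 0.0740 with the random block). For such genes the value of 1 probe set does not stand for the whole transcript.

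Genes induced by neuronal activity spread widely between constructs in replicates 1 and 2. Within a number each construct is 1 array, so a construct and a single culture cannot be told apart there. Immediate early genes are transcribed within minutes of calcium entry and need no new protein, and Npas4 and Fos are typical of them. Of 26 tested, 3 were higher (11.5%, against 26.7% of all genes) and 0 lower; 1 was higher with the random block, and 1 without β4a replicate 1. In replicate 1 the list's median deviation was highest for β4a (1.66), then β4b (0.76) and eGFP (-0.83), and lowest for β4e. In replicate 2 it was again highest for β4a (1.27), then β4b (0.61), β4e (0.17) and eGFP (-0.31), and in replicate 3 it was -0.74 to -0.54. Npas4 read 3.02 with eGFP and 3.20 with β4e in replicate 1, near background, but 13.77 with β4a and 12.89 with β4b. In replicate 2 it read 10.43 to 13.55 and in replicate 3 6.52 to 9.11. Fos read 8.62, 14.15, 14.17 and 8.52 in replicate 1 and 11.08 to 14.49 in the other arrays. Both β4a and β4b arrays were therefore near the top of the range and the eGFP and β4e arrays at its bottom. Differences of replicate 1 were -1.55 ± 2.09 for Npas4 (adjusted p = 0.585) and -1.22 ± 1.12 for Fos (adjusted p = 0.411). Bdnf, a neurotrophin that follows activity more slowly, read 4.86, 9.66, 6.88 and 4.75 against 9.75 to 10.60 in replicate 2 and 5.85 to 7.36 in replicate 3. Egr2, a zinc finger factor, read 4.41, 8.20, 8.07 and 4.00 against 3.49 to 5.62 in the 8 others (1.92 ± 0.64, adjusted p = 0.0373, adjusted p = 0.302 with the random block), and did not pass without any 1 of 7 arrays, with an adjusted p of up to 0.169 without β4b replicate 1. Crem, a cAMP-responsive factor, was above all 8 others in all 4 arrays (1.05 ± 0.16, adjusted p = 0.000950). A test of whether the difference of replicate 1 varied between constructs passed for 0 probe sets, with 4 residual degrees of freedom in limma and 572 probe sets (2.48%) at an unadjusted p under 0.05. That share is below what the threshold alone would give. Egr3 and Spry4 were among the genes with the smallest p in that test. Egr3, an activity-induced zinc finger factor, read 9.43, 13.65, 12.33 and 4.69 in replicate 1 and 10.34 to 11.85 in the others, and Spry4, a feedback inhibitor of growth factor signalling, 6.10, 7.94, 6.92 and 5.59 against 5.02 to 5.65.

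**Figure D4:**
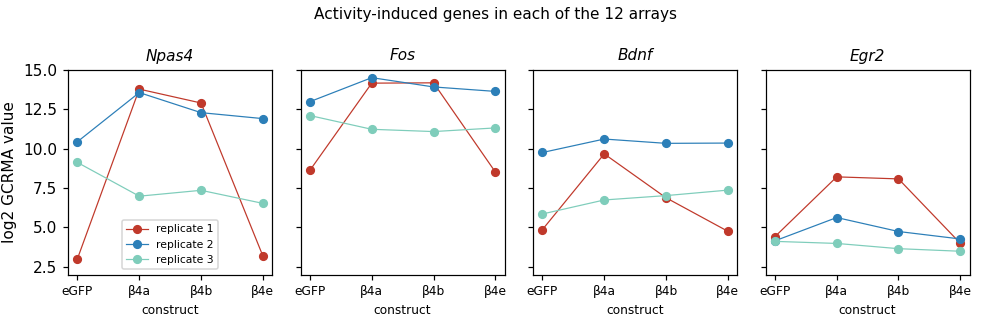
Log2 GCRMA values of 4 activity-induced genes in the 12 arrays, by construct, with the replicate number as colour. In replicate 1, Npas4 reads 3.02 with eGFP and 3.20 with β4e and 13.77 and 12.89 with β4a and β4b.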

How the data were processed

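Expression was measured on 12 Affymetrix 3′ arrays, 500 ng RNA each. The deposited values are log2 intensities per probe set, made by the authors with GCRMA per the submitters' processing notes; its version is not given in the sources used here. They were used as deposited (array medians 3.84 to 3.90). The file holds 45101 probe sets; without the 64 AFFX controls, the 23044 above 4 in at least 3 arrays were tested. Each was fitted in limma 3.58.1 (R 4.3.3) on construct plus replicate 1 against 2 and 3 (7 residual degrees of freedom), with two-sided p-values and Benjamini-Hochberg adjustment. The fit was tested on simulated data with independent noise in each array. Those data held no spread shared by arrays of 1 replicate number, so they cannot show the error rate under such a spread. GEO's platform annotation gave 19477 tested probe sets 1 gene symbol, 534 several and 3033 none; the brightest stands for a gene. Array number limits the precision.

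Arrays of 1 replicate number deviated together across constructs: they correlated at 0.982 to 0.993 within replicate 1 and at 0.989 to 0.996 within 2 or 3, against 0.934 to 0.976 between replicate 1 and the others. A block of 3 levels and a random block (duplicateCorrelation) were fitted beside the model. The comparison, the gene lists and the tests were chosen with earlier results of these data known. Genes were named by rule: per direction, up to 15 of the largest differences without overlap and up to 5 near background, up to 5 passing members per list, cell type markers whatever their values, and 10 with the smallest interaction p. From these the text describes mainly genes that passed without each array in turn.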

Additional observations from a re-analysis of the deposited data

Results flagged for a closer look

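In 306 groups of 4 or 8 arrays (the named genes, the lists and the control readings), 7 held an array whose gap to the nearest of the others exceeded Dixon's critical value; chance gives this in about 5% of groups. Robo2 read 6.35 in eGFP replicate 2 against 4.33 to 4.90 in the other 7 arrays of replicates 2 and 3. Fat2 read 12.80 there against 12.13 to 12.42, and Ddit4, a stress-induced inhibitor of mTOR, 8.17 against 8.64 to 9.03. The median deviation of the cell cycle list was -0.62 in the same array against -0.23 to 0.10. That of the endothelial and pericyte list was -0.29 in β4b replicate 2 against -0.13 to -0.03. Mycn read 6.88 in β4e replicate 1 against 6.30 to 6.33 in the other three. Cox5b, a subunit of cytochrome c oxidase, read 13.10 in β4a replicate 1 against 13.41 to 13.43.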

How the results depend on the processing

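The counts of 5256 higher and 3948 lower probe sets stayed within 1.5 times with a replicate block of 3 levels (7286 and 5348), without construct, without the filter, with quantile normalization, with equal array medians, with trend and robust fitting, with each probe set alone, and against replicate 2 or 3 alone. They became 1256 and 1666 with a random replicate block, 3312 and 2302 for probe sets above 6, and 2198 and 8037 with medians over genes made equal. With the median deviation of genes set to 0, the higher count was 3343. These scalings over genes were added after seeing the data. Leaving out each array in turn gave 3524 to 5303 higher and 2994 to 3981 lower; the lowest of both came without β4b replicate 1. Against replicate 2 alone 12256 probe sets passed and against replicate 3 alone 11115 (10489 to 12007 and 9372 to 10836 without each array; 8001 and 7094 for probe sets above 6, where fewer are tested). The test by construct gave 0 with and without the filter. Among the genes named by rule, 92 that passed were followed. All 92 kept their call with the block of 3 levels and 70 with the random block. The block of 3 levels takes the difference between replicates 2 and 3 out of the spread. Genes chosen because they passed could hardly lose their call there. Neurod1 turned to -0.21 (adjusted p = 0.0304) with medians over genes made equal. List medians changed sign in 10 of 38 lists under that scaling and in 4 with the median deviation of genes at 0. They changed sign in 8 lists against replicate 2 alone and in 3 against replicate 3 alone. For probe sets above 6 they did so in 4 lists, and with the mean of all tested probe sets of a gene in 5. The cause was not tested.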

Other observations

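Some clock output and stress genes gave further differences of replicate 1. Of 17 circadian clock genes, 7 were higher and 0 lower with a median of 0.59 (3 with the random block). Hlf, a PAR-domain factor driven by the clock, read 5.54, 6.53, 6.42 and 6.90 against 3.39 to 4.07 with a median of 3.89, a difference of 2.50 ± 0.17 (adjusted p = 2.17e-05). Bhlhe40, a repressor in the clock loop that many stimuli induce, was higher by 1.42 ± 0.21 (adjusted p = 0.000844). Of 26 genes of the unfolded protein and integrated stress response, 9 were higher (34.6%, against 26.7% of all genes) and 0 lower. The list's median was 0.18 against 0.13 over all genes, and 4 passed with the random block. After the shift of the median gene to 0, 7 were higher and 1 lower with a median of 0.05. Psat1, an enzyme of serine synthesis, was higher by 1.05 ± 0.22 (adjusted p = 0.00490), Atf5, a stress-induced factor, by 0.94 ± 0.18 (adjusted p = 0.00324) and Ddit4 by 1.09 ± 0.23 (adjusted p = 0.00553, adjusted p = 0.139 with the random block). Pmaip1, the death gene Noxa, read 4.93, 5.56, 5.51 and 5.37 against 3.03 to 4.11 (1.64 ± 0.12, adjusted p = 2.22e-05), in a list of p53 and apoptosis genes with 7 of 18 higher (2 with the random block; 4 without eGFP replicate 1). Pdk1, a kinase that limits entry of pyruvate into mitochondria, was higher by 1.24 ± 0.12 (adjusted p = 9.82e-05).

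Of 26 genes of oxidative phosphorylation, 0 were higher and 4 lower: Ndufs1, Cox5b, Cox6c and Ndufs3 differed by -0.32 to -0.25. With the random block 0 of the 26 passed, and without β4a replicate 1 0 were lower as well; the lower count was 1 without eGFP replicate 1 and 2 without β4b or β4e replicate 1. After the shift of the median gene to 0 the lower count was 15. Of 21 ribosomal protein genes, 3 were higher and 1 lower (0 and 0 with the random block, and 0 lower without eGFP, β4b or β4e replicate 1).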
